A study of Homo sapiens with 5 samples.

Results

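The p53-knockout (p53-KO) library of this ChIP-seq series in HCT116 cells, a human colon cancer line, held 7695 p53-antibody peaks on chromosomes 1 to 22 and X. Of these, 2214 (28.8%) had no base in common with any peak of the camptothecin-treated p53-wild-type library (p53-CPT), and these 2214 peaks, called p53-KO-only peaks, are described here. They were chosen by the positions of the called peaks in the p53-KO and p53-CPT lists, which depend on the tags measured in both libraries. They are a small part of the 122505 peaks that the 5 libraries of the series held on the same chromosomes. The other 5481 p53-KO peaks shared at least 1 base with a p53-CPT peak and are called shared peaks. A further 3532 of the 9013 p53-CPT peaks touched no p53-KO peak and are called p53-CPT-only peaks.

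The p53-KO cells (p53-KO, DMSO, p53 antibody) were HCT116 cells in which p53 had been knocked out. The p53-CPT cells (p53-WT) received 1.5 uM of camptothecin for 4 h. The remaining libraries were made with an ATF3 antibody from cells with wild-type ATF3 given DMSO (ATF3-Ctrl) or camptothecin (ATF3-CPT) and from ATF3-knockout cells given DMSO (ATF3-KO), a line made by homologous recombination with an adeno-associated virus vector. All cells were cross-linked with 1 mM of disuccinimidyl glutarate for 45 min and 1% formaldehyde for 10 min. There was 1 library per condition and no replicate, so every interval below covers counting error over peaks only. The p53-KO and p53-CPT libraries differed in genotype, in treatment and in depth, and the parts of these in any difference between their lists cannot be told apart.

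p53 is a transcription factor that binds a pair of adjoining decameric elements in DNA and turns on genes of cell cycle arrest and cell death after damage. Camptothecin blocks topoisomerase I and so breaks DNA. Cells that lack the protein serve as a control for an antibody, because DNA that it gathers from them does not come with p53. Microsatellites are runs of a short unit of bases repeated head to tail. The AC unit, which reads TG on the opposite strand, is the most common dinucleotide unit in the human genome, and AG, which reads TC, is another.

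Most p53-KO-only peaks lay on such repeats. Sequences are printed here for the highest-scoring peak on a tract of a unit other than AC and AG, for the highest-scoring peak without a tract and for a peak with a p53 motif, so that the kinds of DNA can be read. They are reference sequence of GRCh37 (hg19), plus strand, 150 bases each, not the sequence of the HCT116 cells. Capitals mark the longest uninterrupted tandem tract, the p53 motif or the CENP-B box, as each line says.
Tract of another unit, 48 bases, chr10:94708280-94708429, nearest to EXOC6: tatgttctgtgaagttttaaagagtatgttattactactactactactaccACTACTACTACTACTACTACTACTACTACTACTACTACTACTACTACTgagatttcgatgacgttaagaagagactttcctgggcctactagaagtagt
No tract, CENP-B box in capitals, chr17:22253133-22253282, between genes: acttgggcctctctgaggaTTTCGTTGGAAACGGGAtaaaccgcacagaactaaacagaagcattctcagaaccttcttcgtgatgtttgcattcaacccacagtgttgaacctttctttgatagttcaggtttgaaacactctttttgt
p53 motif in capitals, chr9:99062379-99062528, intron of HSD17B3: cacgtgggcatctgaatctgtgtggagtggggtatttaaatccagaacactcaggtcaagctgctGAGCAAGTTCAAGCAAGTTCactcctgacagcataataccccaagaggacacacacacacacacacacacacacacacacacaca
The first shows a pure run of a 3-base unit, and the second the kind of DNA found at centromeres. The last, in which an AC run follows the motif, is the only p53-KO-only peak with a p53 motif free of mismatches.

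The p53-KO-only peaks were weak for the most part. The findPeaks score counts the tags of a peak with at most 1 tag per position, and the lowest score in the p53-KO list was 6, the tag threshold of that library. The median score was 7 in the p53-KO-only peaks (quartiles 6 and 9) and 12 in the shared peaks (quartiles 9 and 19). A score of 6 was held by 738 p53-KO-only peaks and a score of 7 by 538, so that 57.6% lay within 1 tag of the threshold, against 15.1% of the shared peaks. Only 79 p53-KO-only peaks (3.57%) but 1282 shared peaks (23.4%) scored 20 or more. The normalized tag count, which is scaled to a library of 10000000 tags, had a median of 40.3 in the p53-KO-only peaks and of 75.6 in the shared peaks. These strengths go with the rule that chose the peaks and are given without a test.

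**Figure D1:**
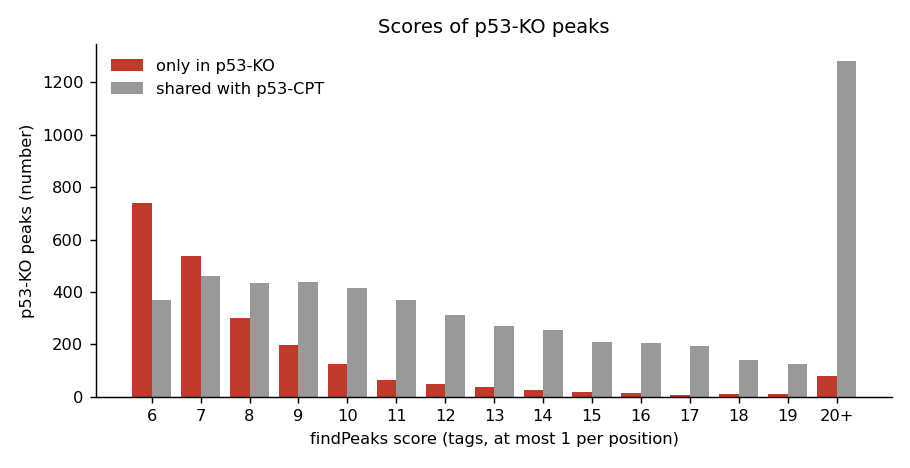
Number of p53-KO peaks at each findPeaks score (x axis, in tags with at most 1 per position), with peaks only in p53-KO in red and peaks shared with p53-CPT in gray. The red bars stand at 738 at a score of 6 and at 10 at a score of 19, and 79 peaks only in p53-KO scored 20 or more.

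The p53-CPT library held 3169743 tags and the p53-KO library 1984941. The tag threshold of p53-CPT was 7, and a peak at the p53-KO threshold would have had 9.58 tags in p53-CPT at the same share of the library. This scaling leaves out sampling error and the other filters of the peak caller. Whether depth accounts for the p53-KO-only peaks was not tested. The median distance from a p53-KO-only peak to the nearest p53-CPT peak was 106452 bp. The distance for random positions was not computed, so this value is a description only. A p53-CPT peak lay within 200 bp of 11 p53-KO-only peaks, and the nearest was 5 bp away. At the other edge of the rule, 7 shared peaks had under 10% of their length covered by p53-CPT peaks, the least being 7.1%, whereas the median shared peak was covered in full.

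A tandem tract was taken as an uninterrupted run of at least 12 bases and 3 copies of a unit of 1 to 6 bases in the 310 bp around the peak centre, which is the peak size of the p53-KO list. An AC tract was present in 1586 p53-KO-only peaks (71.6%, 95% Wilson interval 69.7 to 73.5), beside 58.6% of all p53-KO peaks. It was present in 53.3% of the shared peaks, in 29.3% of the p53-CPT-only peaks and in 1.56% of all 310-bp windows of the genome. The share in p53-KO-only peaks exceeded that in shared peaks by 18.3 percentage points (Newcombe interval 16 to 20.6). AG tracts had the opposite order. They were present in 543 p53-KO-only peaks (24.5%, 22.8 to 26.4), beside 38.3% of all p53-KO peaks, and in 43.9% of the shared peaks, a difference of -19.4 points (-21.6 to -17.2). An AC or an AG tract was found in 85.9% of the p53-KO-only peaks and in 86% of the shared peaks, and the interval of that difference ran from -1.94 to 1.5 points. Thus, over all scores, p53-KO-only and shared peaks differed in which dinucleotide they held, while their shares with either tract differed by at most a few points. Between peaks of like score, compared below, the AC interval left out 0 in only 2 of 7 classes and the AG interval in 6.

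The ATF3-antibody libraries had no such excess. AC tracts were present in 1.53% of ATF3-KO peaks, 1.14% of ATF3-Ctrl peaks and 1.24% of ATF3-CPT peaks, each no higher than the 1.56% of genome windows. These libraries were deeper, with 12820520 to 15457013 tags, and their peaks were narrower, but the same 310 bp around each centre was searched.

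The AC tracts in p53-KO-only peaks were long and central, as were those in shared peaks. Their median length was 46 bases (quartiles 38 and 50), while the AC tracts of genome windows had a median of 19 bases. In shared peaks the median was 49 bases. AG tracts in p53-KO-only peaks had a median of 24 bases, shorter than the 38 bases of shared peaks. An AC tract was the longest tract in 1515 p53-KO-only peaks (68.4%) and its middle lay a median of 5 bp from the peak centre, with 95.6% within 50 bp. In shared peaks with an AC tract as the longest, the median was 5.5 bp, with 96.2% within 50 bp. For the 307 p53-KO-only peaks in which an AG tract was the longest (13.9%), the median distance was 7 bp, against 6.5 bp in shared peaks. Within 20 bp of the centre, 59.8% of the bases of p53-KO-only peaks lay in an AC tract, against 0.128% of the bases of the genome.

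**Figure D2:**
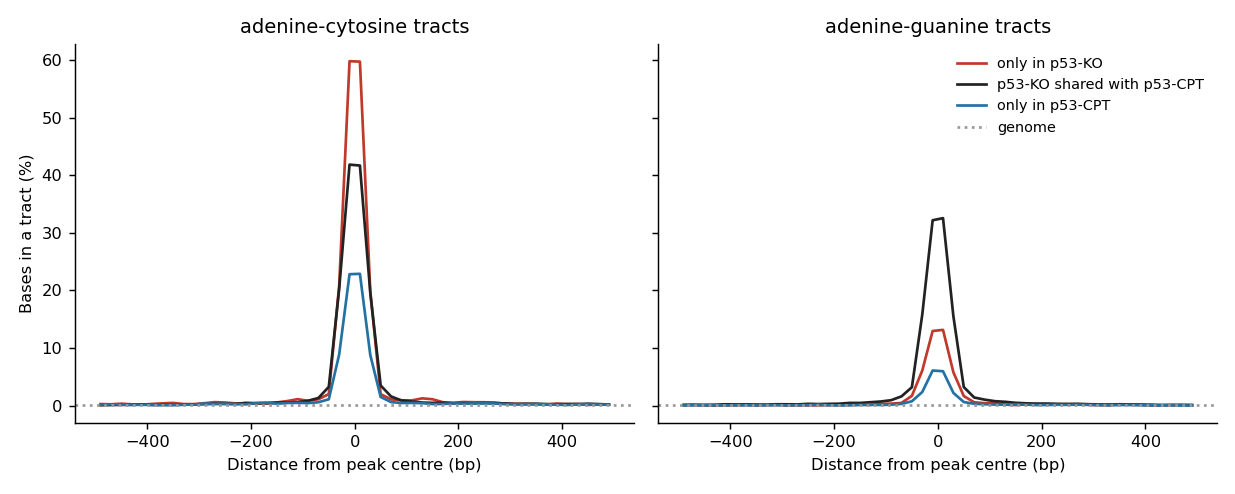
Percent of bases in an adenine-cytosine tract (left) or an adenine-guanine tract (right) in 20-bp steps against the distance from the peak centre in bp, for peaks only in p53-KO (red), shared p53-KO peaks (black) and peaks only in p53-CPT (blue), with the genome as a dotted line. Peaks only in p53-KO reach 59.8% for adenine-cytosine and 13.2% for adenine-guanine at the centre, and shared peaks reach 41.9% and 32.6%.

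The share of the genome's AC tracts that lay in a p53-KO peak depended on tract length. Of the 24087 AC tracts of 30 to 39 bases, 2.94% lay in a p53-KO peak and 1.01% in a p53-KO-only peak. Of the 5113 tracts of 45 to 49 bases, 15.7% lay in a p53-KO peak and 9.11% in a p53-KO-only peak. Of the 2335 tracts of 50 to 59 bases, 72.5% lay in a p53-KO peak and 18.6% in a p53-KO-only peak. For the 269 tracts of 60 bases or more these shares were 78.1% and 10%. The p53-CPT list followed nearly the same course, with 11.9% of tracts of 45 to 49 bases, 66.6% of those of 50 to 59 bases and 83.6% of those of 60 bases or more. No ATF3-KO peak lay on any of the 7717 AC tracts of 45 bases or more (upper Wilson bound 0.0498%).

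The p53-KO-only peaks were the larger part of the p53-KO peaks only at intermediate AC lengths. They took 52.5% (47.8 to 57.1) of the AC tracts of 40 to 44 bases that lay in p53-KO peaks and 58% (54.5 to 61.3) of those of 45 to 49 bases. They took 34.5% of those of 30 to 39 bases, 25.7% of those of 50 to 59 bases and 12.9% of those of 60 bases or more. The median score of p53-KO-only peaks was 7 at AC tracts of 40 to 49 bases, 8 at 50 to 59 bases and 21 at 60 bases or more.

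AG tracts entered p53-KO peaks at shorter lengths, and fewer of them were in p53-KO-only peaks. Of the 741 AG tracts of 40 to 44 bases, 46% lay in a p53-KO peak, and of the 428 tracts of 50 to 59 bases, 96.7% did. The p53-KO-only peaks held 7.96% and 4.91% of these. None of the 129 AG tracts of 60 bases or more lay in a p53-KO-only peak (upper Wilson bound 2.89%), while 126 of them lay in a shared peak.

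**Figure D3:**
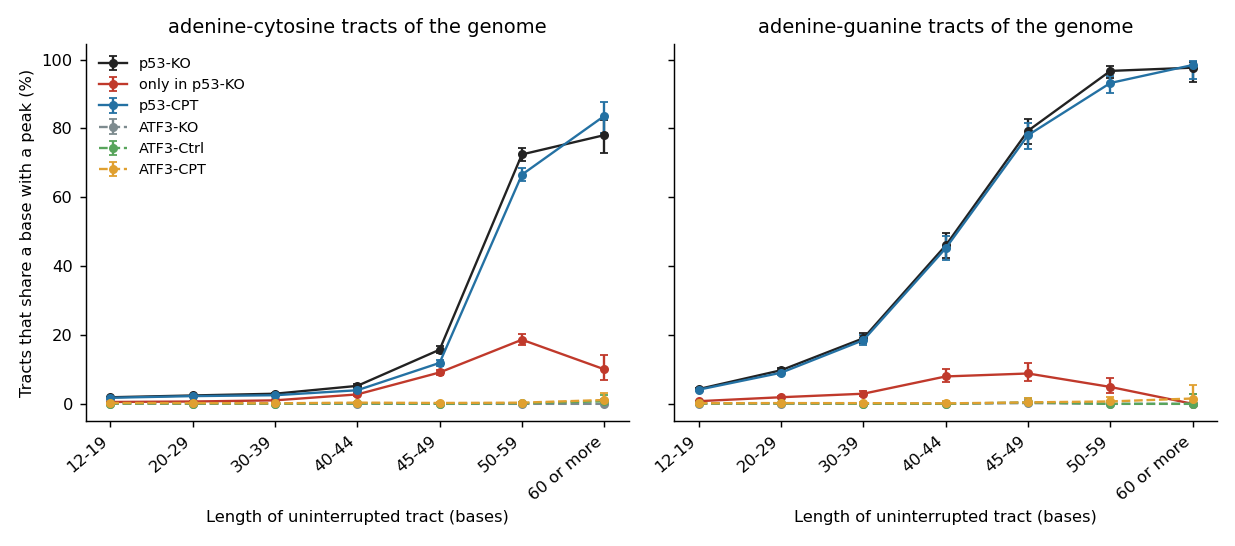
Percent of the genome's uninterrupted adenine-cytosine (left) and adenine-guanine (right) tracts that share a base with a peak, against tract length in bases, for the p53-KO list (black), peaks only in p53-KO (red), p53-CPT (blue) and the ATF3-antibody lists (dashed), with 95% Wilson intervals. Both p53-antibody lists climb to 72.5% and 66.6% at adenine-cytosine tracts of 50 to 59 bases, the red line peaks there at 18.6%, and the ATF3-antibody lists stay at 1.55% or less throughout.

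Because shared peaks were stronger and tract content moved with score, tract shares were also compared between peaks of like score. AG tracts were less frequent in p53-KO-only peaks in 6 of 7 score classes, with intervals that left out 0. At scores of 13 to 19 the shares were 25.2% of 123 p53-KO-only peaks and 46.8% of 1399 shared peaks, a difference of -21.6 points (-28.9 to -12.9). At a score of 8 they were 28.9% and 29.6%, with an interval from -7.25 to 6.06 points. AC tracts were more frequent in p53-KO-only peaks in each class, but the interval left out 0 in only 2 of 7 classes. At a score of 7 the AC shares were 77.1% and 70.3%, a difference of 6.86 points (1.39 to 12.3), and at scores of 13 to 19 they were 68.3% and 51%, a difference of 17.3 points (8.27 to 25.3). At the threshold score of 6 they were 72.9% and 70.4%, and the interval from -3.02 to 8.27 points held 0. In both sets AC tracts were less frequent in the strongest peaks, with 39.2% of p53-KO-only and 29.3% of shared peaks at scores of 20 or more.

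**Figure D4:**
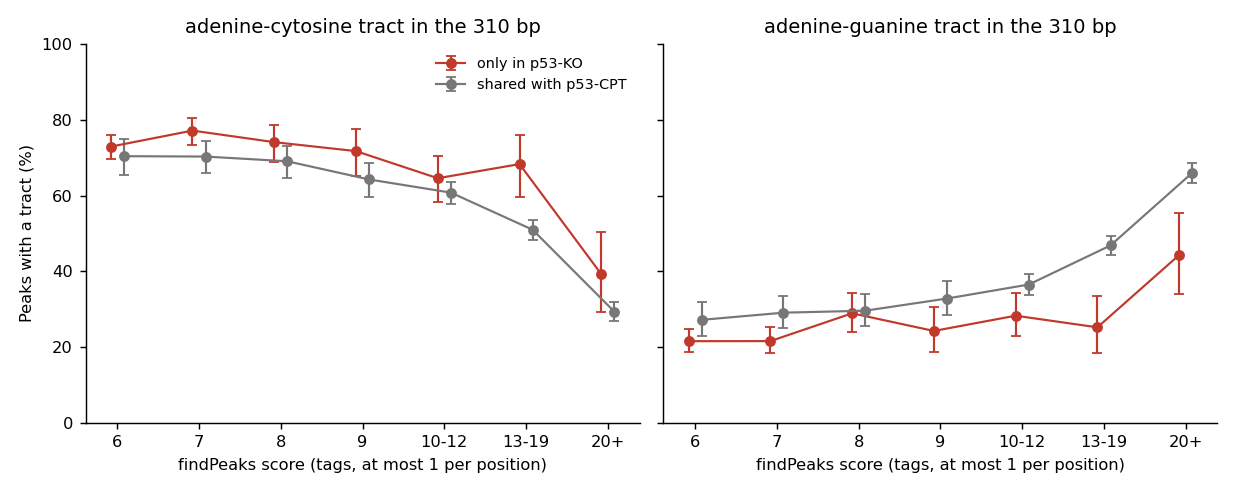
Percent of peaks with an adenine-cytosine (left) or adenine-guanine (right) tract in the 310 bp around the centre, by findPeaks score, for peaks only in p53-KO (red) and shared peaks (gray), with 95% Wilson intervals. At scores of 13 to 19 the adenine-guanine share was 25.2% in red and 46.8% in gray, and at a score of 6 the adenine-cytosine shares were 72.9% and 70.4%.

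A smaller number of p53-KO-only peaks lay on other DNA. Tracts of other units were the longest in 269 p53-KO-only peaks. Of the units, ACAT was the most common, with 26 peaks, followed by ATCC and AGAGGG with 16 each. Runs of a single base, the most common tract in the genome, were the longest tract in 0.271% of p53-KO-only peaks, 0.146% of shared peaks and 6.4% of genome windows. Such runs were not counted where another tract was longer, and AC or AG tracts were the longest in most p53-KO-only peaks. No tract of any unit was found in 123 p53-KO-only peaks (5.56%), against 83.4% of genome windows and 51.4% of p53-CPT-only peaks. In the p53-KO-only peaks without a tract, 26% lay within 1 Mb of an assembly gap of at least 100 kb, against 4.42% of those in which an AC tract was the longest and 5.56% of all p53-KO peaks. The peaks without a tract also had the highest median GC content of the 4 kinds, 48.7%.

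Low sequence complexity, defined as fewer than 0.5 distinct 6-base words per word in 300 bp, was found in 8.36% (7.27 to 9.58) of p53-KO-only peaks, beside 10.9% of all p53-KO peaks. It was found in 11.9% of shared peaks, in 5.1% of p53-CPT-only peaks and in 0.491% of genome windows. The difference from shared peaks was -3.57 points (-4.97 to -2.09), and within classes of like score the interval held 0 in 7 of 7 classes. Words of 24 bases that occur elsewhere in the genome made up at least 50% of the sequence in 21.3% of p53-KO-only peaks, beside 25.2% of all p53-KO peaks, 26.7% of shared peaks and 18.7% of genome windows. This share was lower than in shared peaks by an interval that left out 0 (-5.47 points, -7.51 to -3.37), but at like score that was so in only 1 of 7 classes. Annotated interspersed repeats were not analysed here.

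The p53 motif was not enriched in the p53-KO-only peaks. With up to 3 mismatches in its 20 bases, it was found in 115 of them (5.19%, 4.35 to 6.2), beside 4.67% of all p53-KO peaks and 7.29% of genome windows. In p53-CPT-only peaks it was found in 44.7% (p53-KO-only minus p53-CPT-only -39.5 points, -41.4 to -37.6). A motif without mismatch was present in 1 p53-KO-only peak and in 5.12% of p53-CPT-only peaks. The single peak, chr9:99062362-99062672, had a score of 7 and an AC tract of 44 bases, and lay 1869 bp downstream of a TSS of HSD17B3, an enzyme of testosterone synthesis. The AP-1 core TGACTCA or TGAGTCA, which Fos and Jun proteins bind, was in 4.11% of p53-KO-only peaks, beside 3.86% of all p53-KO peaks, 4.74% of genome windows and 43.7% of ATF3-CPT peaks. The CRE core, the palindrome bound by ATF and CREB proteins, was in 3 p53-KO-only peaks (0.136%) and in 0.109% of genome windows.

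By position, p53-KO-only peaks were spread over introns and intergenic DNA much as the genome is, with somewhat more in promoters and fewer in exons. Of their centres, 125 (5.65%, 4.76 to 6.69) lay in promoters, that is within 2 kb of a TSS of a protein-coding gene, beside 5.95% of all p53-KO peaks and 4.65% of genome windows. Exons held 1.72% of the centres (1.25 to 2.35), introns 40.2% and intergenic DNA 52.5%, against 2.94%, 39.2% and 53.2% of genome windows. The promoter share was 6.08% in shared peaks (difference -0.43 points, -1.54 to 0.773) and 11.7% in p53-CPT-only peaks (difference -6.05 points, -7.46 to -4.59). In the ATF3-KO list it was 61.3%. The median GC content was 43.5% (43.2 to 44.2) in p53-KO-only peaks, 44.8% (44.5 to 45.2) in shared peaks, 46.5% (46.2 to 46.9) in p53-CPT-only peaks and 40% in genome windows. Since AC and AG units are themselves 50% GC, this value contains the tracts. The number of p53-KO-only peaks per Mb of known sequence ranged from 0.65 to 1.01 over the autosomes, with 0.773 for all autosomes together. On chromosome X it was 0.92, within that range. AC tracts of at least 40 bases had 6.66 per Mb on X against 5.67 on the autosomes, and ATF3-CPT peaks 8.18 against 25.7 per Mb. Whether tract density and peak density are linked was not tested.

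The nearest protein-coding TSS lay a median of 54148 bp from a p53-KO-only peak (quartiles 16019 and 167537), and 797 peaks were more than 100 kb from any. They had 1795 different nearest genes, and 903 gene bodies held at least 1 of them. The gene with the most was ZFHX3, a homeobox transcription factor, with 5 p53-KO-only and 5 shared peaks in its 1109 kb. GMDS, an enzyme of GDP-fucose synthesis, held 4 p53-KO-only peaks and 0 shared peaks in 622 kb, and NTRK3, a neurotrophin receptor, held 4 and 1. PTPRD, a receptor tyrosine phosphatase, and RBMS3, an RNA-binding protein, held 4 each, beside 9 and 6 shared peaks, in gene bodies of 2299 kb and 1436 kb. ENSG00000283563, a gene of 1418 kb without a symbol in the annotation, held 4 p53-KO-only and 4 shared peaks.

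The 10 highest-scoring p53-KO-only peaks all sat on AC or AG tracts, which 85.9% of all p53-KO-only peaks held. The first, chr2:155511388-155511698, scored 130 on an AC tract of 44 bases, 42824 bp upstream of KCNJ3, a potassium channel subunit. Its normalized tag count was 2721 (2496 to 2960, exact Poisson interval). This peak held 540 tags at a score of 130, so many of its tags shared a position. The interval treats all tags as independent and does not allow for this. The second, chr7:71262943-71263253, scored 118 on an AG tract of 53 bases in an intron of CALN1, and GALNT17 held the nearest TSS. Its normalized tag count was 1501 (1336 to 1682), from 298 tags. The third, chr11:116001461-116001771, scored 110 on an AG tract of 46 bases, 625941 bp upstream of CADM1, a cell adhesion molecule. By comparison, 80.2% of the p53-KO-only peaks scored under 10. The peak at chr9:28355122-28355432 scored 98, in an intron of LINGO2. An intron of MFSD1, a lysosomal transporter, held a peak of score 84 on an AG tract of 34 bases. A peak of score 73 lay 62693 bp upstream of SLC35G1. An intron of CREBBP, a histone acetyltransferase, held a peak of score 68 on an AC tract of 111 bases. An intron of NLGN4X, a synaptic adhesion protein, held a peak of score 65, a region upstream of EXOC2, an exocyst subunit, a peak of score 60, and an intron of MED13L, a Mediator subunit, a peak of score 54. Of these 10 peaks, 7 had an AG tract as their longest and 3 an AC tract, beside 13.9% and 68.4% of all p53-KO-only peaks. AG tracts were more frequent in strong peaks of both sets. At scores of 20 or more, 44.3% of p53-KO-only and 66% of shared peaks held one. None of the 10 overlapped an ATF3-antibody peak, beside 3.57% of all p53-KO-only peaks, so this count shows no deficit.

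Several strong p53-KO-only peaks were near a limit of the peak caller. The lists hold only peaks with a clonal fold, the ratio of expected to observed tag positions, of up to 2, and with a fold of at least 4 over the local region. Among the 79 p53-KO-only peaks with a score of 20 or more, 28 (35.4%, 25.8 to 46.4) had a clonal fold of at least 1.8 and 9 had a local fold under 5. Among the 1282 shared peaks with such scores, 50 (3.9%, 2.97 to 5.1) and 12 did. The peak upstream of SLC35G1 had a clonal fold of 2, the limit itself. The headers state that 509 putative peaks of p53-CPT were removed for clonality and 1226 for local signal, and whether any of them lay at a p53-KO-only peak was not tested. Over all scores, 3.79% of p53-KO-only peaks and 5.22% of shared peaks had a clonal fold of at least 1.8.

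In promoters, the highest score was 44, in a peak at chr2:85841978-85842288 and 1133 bp upstream of a TSS of USP39, a splicing factor, on a 56-base tract of a 5-base unit. The next were peaks of score 34 at C16orf87, 31 at RAI1, 25 at GABRB1, a GABA receptor subunit, 21 at PVR, the poliovirus receptor, and 21 at STYXL1. Those at C16orf87, RAI1 and PVR had AG tracts of 41, 48 and 21 bases as their longest, and those at GABRB1 and STYXL1 had AC tracts of 22 and 66 bases. NPIPB5, DNAJC5B, WWC1 and SACM1L followed, with scores of 19, 16, 14 and 14. Of these 10 promoter peaks, only that at SACM1L, a phosphoinositide phosphatase, had no tract, beside 5.56% of all p53-KO-only peaks. Only it overlapped ATF3-antibody peaks, those of ATF3-KO and ATF3-Ctrl, beside 3.57% of all p53-KO-only peaks in any ATF3-antibody list.

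Known p53 target genes held no p53-KO-only peak. Of 26 such genes, among them CDKN1A, the cell cycle inhibitor p21, and MDM2, the ubiquitin ligase of p53, 0 had a p53-KO-only peak between 20 kb upstream and the gene end, beside 5.95% of all 20090 protein-coding genes. In the same regions 22 of the 26 had a p53-CPT-only peak and 2 had a shared peak, beside 11.2% and 13.4% of all protein-coding genes. At the share of all genes, 1.55 of the 26 would hold a p53-KO-only peak, so a count of 0 shows no deficit. None of 11 ATF and AP-1 genes, of 10 immediate early genes or of 10 genes that the study itself picked for ChIP-seq examples held a p53-KO-only peak. Of 81 cytoplasmic ribosomal protein genes, 2 did (2.47%). The peak at RPS6, chr9:19383792-19384102, scored 9 and held an AC tract of 40 bases, 3713 bp upstream of the TSS. The peak within 20 kb of RPL6 lay at chr12:112862542-112862852, in an intron of PTPN11, with a score of 6 and an AC tract of 53 bases.

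Of the p53-KO-only peaks, 79 (3.57%) overlapped a peak of at least 1 ATF3-antibody list. The share of genome windows that overlap these lists was not computed, so the overlaps are not set against the genome. An ATF3-KO peak was overlapped by 38 (1.72%, 1.25 to 2.35), an ATF3-Ctrl peak by 56 (2.53%, 1.95 to 3.27) and an ATF3-CPT peak by 60 (2.71%, 2.11 to 3.47), beside 2.3%, 3.14% and 3.89% of all p53-KO peaks. These overlaps are 1.81%, 0.167% and 0.0856% of the ATF3-KO, ATF3-Ctrl and ATF3-CPT lists. In shared peaks the shares were 2.54%, 3.39% and 4.36%, and the differences were -0.82 (-1.47 to -0.0813), -0.864 (-1.64 to 0.0014) and -1.65 points (-2.48 to -0.733). Within each of 7 classes of like score, all 3 intervals held 0. p53-CPT-only peaks overlapped ATF3-CPT peaks in 18.6%.

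The 79 p53-KO-only peaks in any ATF3-antibody list differed in kind from the 2135 in none. An AC or AG tract was present in 23 of the 79 (29.1%, 20.3 to 39.9) and in 88% (86.5 to 89.3) of the 2135. In the whole ATF3-KO, ATF3-Ctrl and ATF3-CPT lists, such tracts were in 1.91%, 1.58% and 1.7% of peaks. Shared peaks that overlap these lists were not compared, so the contrast is not shown to be particular to p53-KO-only peaks. An assembly gap lay within 1 Mb of 34 of the 79 (43%, 32.7 to 54) and of 4.54% (3.74 to 5.51) of the 2135. Of the 38 in the ATF3-KO list, 26 (68.4%, 52.5 to 80.9) lay near a gap, 29 (76.3%) consisted of repeated 24-base words to at least 50%, and 2 had an AC or AG tract. A CENP-B box, a 17-base motif that the centromere protein CENP-B binds in alpha satellite DNA, was found on either strand in 6 of these 38 and in 2 of the 2135, beside 0.0201% of genome windows. It was in 3.34% of all ATF3-KO peaks. Among all p53-KO-only peaks its share was 0.361%, against 0.42% of shared peaks (difference -0.0583 points, -0.333 to 0.319). Of the 23 p53-KO-only peaks in all 3 lists, 18 lay near a gap, 1 was in a promoter and 0 had an AC or AG tract.

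**Figure D5:**
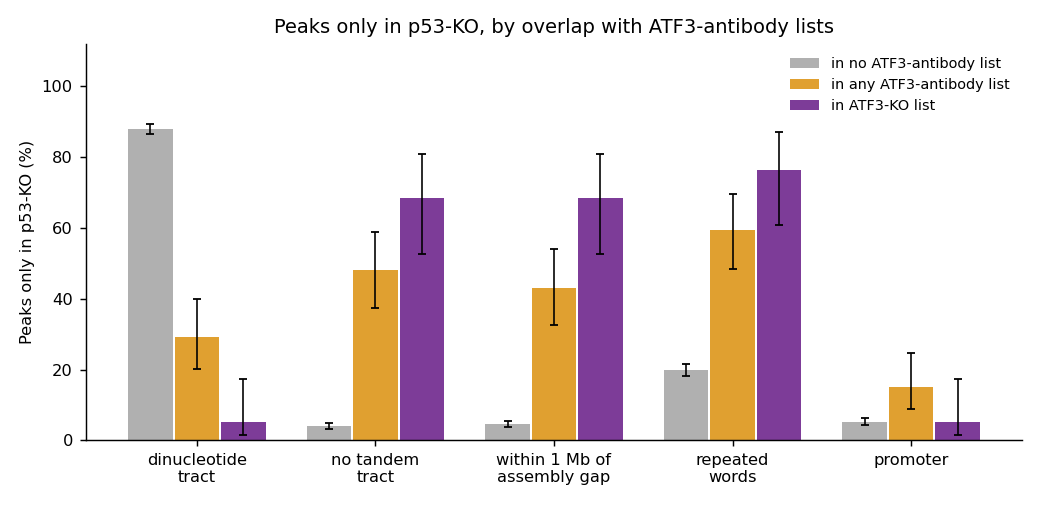
Percent of the peaks only in p53-KO with each feature, with 95% Wilson intervals, for the 2135 in no ATF3-antibody list (gray), the 79 in any (orange) and the 38 in the ATF3-KO list (purple). Dinucleotide (AC or AG) tracts were in 88%, 29.1% and 5.26% of these, and 4.54%, 43% and 68.4% lay within 1 Mb of an assembly gap.

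The 5 highest-scoring p53-KO-only peaks in all 3 ATF3-antibody lists had no tract and lay between genes. Those at chr17:22253052-22253362, nearest to MTRNR2L1, and chr18:18519718-18520028, nearest to ROCK1, scored 49 and 42. They stood little above their surroundings, with local folds of 4.17 and 4.27, and their clonal folds of 0.93 and 1.07 were far from the limit. The other 3, at chr16:46435217-46435527, chr18:18512723-18513033 and chr8:43837236-43837546, scored 40, 26 and 20, with local folds of 4.65, 4.78 and 4.05. By contrast, the 3 highest-scoring p53-KO-only peaks had local folds of 206, 60.1 and 612.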

How the data were processed

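Chromatin was sheared to about 500 bp, precipitated with a p53 or ATF3 antibody and sequenced. The authors aligned reads to hg19 with BWA 0.6.1 and called peaks in each library on its own with HOMER 4.1 (findPeaks), with no input library named in the headers, at a false discovery rate of 0.001. The deposited lists give each peak a normalized tag count, a signal per 10000000 tags of the library, a score that is a count of tags with at most 1 per position, and a focus ratio, the fraction of tags near the centre. The authors also deposited a fold (ratio) to the local region, the p-value of that fold, and a clonal fold. The p-values and focus ratio were not used. Totals were 1984941 tags (p53-KO), 3169743 (p53-CPT) and 12820520 to 15457013 (ATF3 libraries). A count of 3 tags equals a normalized tag count of 15.1 in p53-KO, and no peak in its list had a score under its threshold of 6. The lowest normalized tag count in its p53-KO-only and shared peaks was 25.2, under the 30.2 of 6 tags.

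The p53-KO-only peaks were p53-KO peaks on chromosomes 1 to 22 and X without 1 bp in common with p53-CPT, and 184 p53-KO peaks on other sequences were left out. Overlap was at least 1 bp throughout. Sequences came from GRCh37, the build of hg19, and genes from GENCODE release 44 mapped to it. Tracts, motifs (both strands, the p53 motif as a pair of decamers with no spacer and at most 3 mismatches) and positions were compared with all 9147040 windows of 310 bp without unknown bases, repeated words with every 1000th window. Motifs may overlap each other and the tracts. Low complexity took the place of repeat-masked bases, since the reference used here has no masking. The sequences of some named peaks are not reported here. Shares have 95% Wilson intervals, differences Newcombe intervals, medians order-statistic intervals and tag counts exact Poisson intervals. The Poisson intervals treat tags at the same position as independent. No test was made, since each condition had 1 library.

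Members, gene lists and rules were chosen with earlier results of these data known, and the tract search, score classes and CENP-B box were chosen after seeing the data. Named peaks were the 10 highest-scoring of all, the 10 in promoters, the 5 in all ATF3-antibody lists and those at listed genes, beside the genes holding the most peaks, chosen after seeing the values. Scripts (Python 3.11.15, NumPy 2.4.6, pandas 2.3.3, SciPy 1.17.1, numba 0.67.0, pysam 0.24.0) were tested on simulated data.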

Additional observations from a re-analysis of the deposited data

How the results depend on the processing

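Of 60 alternative values, 42 stayed within 1.5 times the count or within the 95% interval of the reported value. Requiring a p53-KO score of 8 left 938 peaks, of which 24, 28 and 27 overlapped ATF3-KO, ATF3-Ctrl and ATF3-CPT peaks and 67.5% held an AC tract. Counting only p53-CPT peaks with a score of at least 10 gave 3654 peaks. Requiring 50% cover for a shared peak gave an AC share of 69.1% and a low-complexity share of 11.2%. The promoter share was 3.16% within 1 kb and 13.5% with TSS of genes of every type. Without peaks within 1 Mb of a gap, 12, 26 and 35 overlapped ATF3-KO, ATF3-Ctrl and ATF3-CPT peaks. Only ATF3-antibody peaks scoring 20 or more gave 18, 24 and 24, and ATF3-CPT peaks within 200 bp gave 95. Tracts of at least 24 bases were AC in 65.2%. Median GC moved under none of its 7 alternatives. Fewer peaks or tracts enter several of these by construction, and other causes were not tested. The AC share stayed above, and the AG share below, that of shared peaks under all 6 alternatives to the rule, by 15.1 to 25 and by 18.2 to 24.1 points. These alternatives did not compare peaks of like score, where the AC interval left out 0 in only 2 of 7 classes. The AC alternatives were chosen after seeing the data. The alternative of any soft-masked base was not run, since the sequence used has no masking. No paired analysis was possible because each condition had 1 library.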

Other observations

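The p53-CPT-only peaks are the mirror image of the p53-KO-only peaks and were of mixed kind. Of the 3532, 1034 held an AC tract with a median length of 47 bases, close to the 46 bases of the p53-KO-only peaks, and 51.4% held no tract. An AG tract was present in 10.8% of them, against 24.5% of the p53-KO-only peaks (difference 13.8 points, 11.7 to 15.8).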
